A study of Mus musculus with 12 samples.

Results

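The 10 genes described here encode the CD3 chains of the T cell receptor complex (Cd3d, Cd3e, Cd3g and Cd247), the CD8 coreceptor (Cd8a and Cd8b1) and the proteins that act on the receptor within its earliest signalling steps (Lck, Zap70, Lat and Lcp2). They were taken by symbol from the deposited table of raw counts, where 10 of 10 were found, each on a single Ensembl identifier, among 77175 genes. Messenger RNA had been sequenced from 12 mouse libraries in 4 groups of 3. All tumors were grown in NOD-SCID mice, which lack functional T and B cells of their own but keep myeloid cells and natural killer cells, and all mice had received OT-1 CD8+ T cells that were activated with beads against CD3 and CD28. Tumors were taken 2 days later. The B16-F10 melanoma line carried a lentiviral GCaMP6s calcium reporter under the EF1A promoter. The line B16-F10-OVA carried in addition an EF1A-driven ovalbumin, the antigen whose peptide the OT-1 receptor recognises. Melanoma cells were sorted by GCaMP6s fluorescence, and T cells of the genotype C57BL/6J-OT-I were pulled from the tumor suspension with beads against CD8. The groups are called here the B16-F10 and OVA melanoma fractions and the B16-F10 and OVA T fractions. The age of the mice, and whether the 3 libraries of a group come from 3 mice, are not given in the labels, so the p-values below describe only how much these libraries vary, and that variation could be technical.

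As background, the T cell receptor recognises peptide on MHC but has no signalling domain of its own. It is built with the CD3 gamma, delta and epsilon chains and with a zeta chain pair encoded by Cd247, whose cytoplasmic tails carry tyrosine motifs. CD8 binds MHC class I and brings the kinase LCK to the complex, where LCK phosphorylates those motifs. ZAP-70 docks on the zeta and CD3 tails and phosphorylates the membrane adaptor LAT and the cytosolic adaptor SLP-76, encoded by Lcp2, on which calcium and Ras signalling assemble.

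Library totals ran from 15494683 to 33263730 counts. The fractions were mixed, and the OVA melanoma fraction stood apart from the B16-F10 melanoma fraction before any member was considered. The summed level of 12 melanoma markers was 23441 to 23528 CPM (CPM is the count scaled to a library total of 1000000) in the B16-F10 melanoma fraction, 9993 to 10010 CPM in the OVA melanoma fraction, 242 to 249 CPM in the B16-F10 T fraction and 107 to 113 CPM in the OVA T fraction. In the same order, 12 endothelial markers summed to 23.6 to 25.0, 4249 to 4307, 10810 to 10944 and 10241 to 10324 CPM, and 12 macrophage and monocyte markers to 15.7 to 16.7, 2724 to 2745, 770 to 773 and 817 to 823 CPM. T cell genes other than the members, 18 in all, summed to 29.5 to 31.3, 171 to 174, 1116 to 1138 and 962 to 967 CPM. In the B16-F10 melanoma fraction Prkcq alone made up 29.1 ± 0.653 CPM of that sum, and 6 of the 18 genes, Trac and Trbc2 among them, had 0 counts. The part of these mixtures in the results below was not tested, and in bulk RNA fewer T cells and less RNA per T cell cannot be told apart. Cd4 reached 14.5 ± 0.741 CPM in the B16-F10 T fraction and 15.5 ± 0.621 CPM in the OVA melanoma fraction (SD, n = 3). The list of 12 natural killer cell genes summed to 72.5 to 75.7 CPM in the B16-F10 T fraction and 305 to 316 CPM in the OVA T fraction, of which Gzma and Prf1, cytotoxic genes that CD8+ T cells also express, made up 39.8 and 4.20 CPM in the former and 206.7 and 86.8 CPM in the latter. Of the receptor genes in that list, Ncr1 and Klrb1c had group means of no more than 0.165 CPM, and Klra8 and Klra9 were highest in the OVA melanoma fraction, at 3.501 and 2.08 CPM. In the B16-F10 and OVA T fractions Klra8 stood at 0.718 and 0.4 CPM and Klra9 at 0.529 and 0.321 CPM. Klri2 rose from 0.387 to 3.99 CPM between the T fractions (log2 fold change 3.43, SE 0.255, adjusted p = 9.31e-12, edgeR). Eomes, also in that list, fell from 27.8 ± 0.296 to 12.3 ± 0.156 CPM (-1.12, SE 0.0597, adjusted p = 8.8e-15, edgeR).

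The CD3 chain genes lie side by side, and their start regions are shown because the 3 genes were high and low in the same fractions. In RefSeq's annotation Cd3g, Cd3d and Cd3e follow each other on chromosome 9, and Cd8b1 and Cd8a are neighbours on chromosome 6. Start regions of 300 bases, 250 before and 50 after the annotated start, were found in RefSeq (GRCm38.p6) for 9 of the 10 members, 12 regions in all, since Lck has 2 annotated starts and Zap70 has 3. The entry for Cd8b1 was missing. Cd3g and Cd3d run away from each other, with 1355 bases between their annotated starts. The start regions of Zap70 (the first of its 3) and Lat are added because these genes had the highest and the lowest fold change of the 10 in the T fraction. Capitals mark AGGAAG (an ETS family motif) and TGTGGT (a RUNX family motif) on either strand, so that CTTCCT and ACCACA are the same motifs on the other strand. All are written in the direction of the gene.
Cd3g, chr9:44980382-44980681, minus strand: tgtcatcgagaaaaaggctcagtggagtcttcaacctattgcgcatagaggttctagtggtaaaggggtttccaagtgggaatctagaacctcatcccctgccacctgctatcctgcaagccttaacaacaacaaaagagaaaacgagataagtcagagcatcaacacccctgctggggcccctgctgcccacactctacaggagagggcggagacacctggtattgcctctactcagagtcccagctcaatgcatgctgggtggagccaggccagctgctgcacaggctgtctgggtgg
Cd3d, chr9:44981536-44981835, plus strand: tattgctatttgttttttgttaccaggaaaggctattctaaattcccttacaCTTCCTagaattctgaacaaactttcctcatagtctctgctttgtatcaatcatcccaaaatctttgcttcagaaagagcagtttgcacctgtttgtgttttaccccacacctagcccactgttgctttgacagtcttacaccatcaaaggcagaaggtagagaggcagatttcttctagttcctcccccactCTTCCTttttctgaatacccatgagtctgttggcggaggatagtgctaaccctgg
Cd3e, chr9:45009562-45009861, minus strand: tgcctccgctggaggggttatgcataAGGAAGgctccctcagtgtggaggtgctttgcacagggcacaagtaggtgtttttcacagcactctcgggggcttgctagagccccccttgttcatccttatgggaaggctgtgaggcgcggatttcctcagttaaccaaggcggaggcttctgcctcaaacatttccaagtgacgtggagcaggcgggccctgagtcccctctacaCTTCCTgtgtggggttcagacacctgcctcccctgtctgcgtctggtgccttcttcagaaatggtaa
Zap70, chr1:36761548-36761847, plus strand: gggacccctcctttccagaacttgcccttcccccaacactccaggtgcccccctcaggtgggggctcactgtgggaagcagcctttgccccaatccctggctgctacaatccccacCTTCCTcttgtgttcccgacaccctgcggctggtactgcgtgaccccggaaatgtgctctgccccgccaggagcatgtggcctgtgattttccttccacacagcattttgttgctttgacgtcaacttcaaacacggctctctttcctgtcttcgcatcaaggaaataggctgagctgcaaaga
Lat, chr7:126369519-126369818, minus strand: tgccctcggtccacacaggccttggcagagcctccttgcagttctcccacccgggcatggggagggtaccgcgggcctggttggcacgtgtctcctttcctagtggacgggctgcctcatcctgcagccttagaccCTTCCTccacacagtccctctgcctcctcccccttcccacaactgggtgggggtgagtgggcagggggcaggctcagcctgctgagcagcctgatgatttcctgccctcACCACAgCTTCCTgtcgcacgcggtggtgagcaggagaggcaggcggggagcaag
The ETS letters occurred in 9 of the 12 member regions and in 35.4% of all 32851 regions of this length. The RUNX letters occurred in 3 of 12 and in 16.8% of all. Cd3g holds neither in this window. The Lat region holds both, as do a region of Zap70 and a region of Lck that are not shown. The TCF/LEF letters CTTTGA, also searched on both strands, occurred in 4 of 12 and in 16%, and the E-box CANNTG in 12 of 12 and in 72.3%. A match describes letters and not a bound site.

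The levels of the 10 genes set the 4 groups in a clear order. They were highest in the T fractions, lower in the OVA melanoma fraction, and at or near 0 in the B16-F10 melanoma fraction, apart from Lck and Lat. Compared between genes per kilobase of exon, Cd3g led in the B16-F10 T fraction with 59.3 ± 2.16 CPM per kilobase (SD, n = 3 throughout), ahead of Cd3e at 41.7 ± 0.697 and Cd8a at 37.9 ± 0.429. Lck followed at 36.4 ± 1.53, which its spread does not part from Cd8a, then Lat at 32.8 ± 0.505, Cd3d at 28.9 ± 1.31, Cd8b1 at 24.2 ± 0.888, Zap70 at 16.5 ± 0.493, Lcp2 at 15.0 ± 0.707 and Cd247 at 5.55 ± 0.308. In the OVA T fraction the order was Cd3g at 55.9 ± 0.743, Cd3e at 51.4 ± 2.40, Cd8a at 41.5 ± 0.826, Cd8b1 at 35.9 ± 1.12, Lck at 33.6 ± 0.184, Cd3d at 29.2 ± 0.603, Zap70 at 27.7 ± 0.934, Lat at 26.3 ± 1.59, Lcp2 at 20.1 ± 0.27 and Cd247 at 8.99 ± 0.281 CPM per kilobase. Zap70 and Lat did not differ there beyond their spread. Lat stood above Cd8b1 and Zap70 per kilobase in the B16-F10 T fraction, and below Cd8b1 in the OVA T fraction. The exon lengths come from another annotation (GENCODE M21, GRCm38) than the counts, so the order between genes rests on those lengths.

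**Figure D1:**
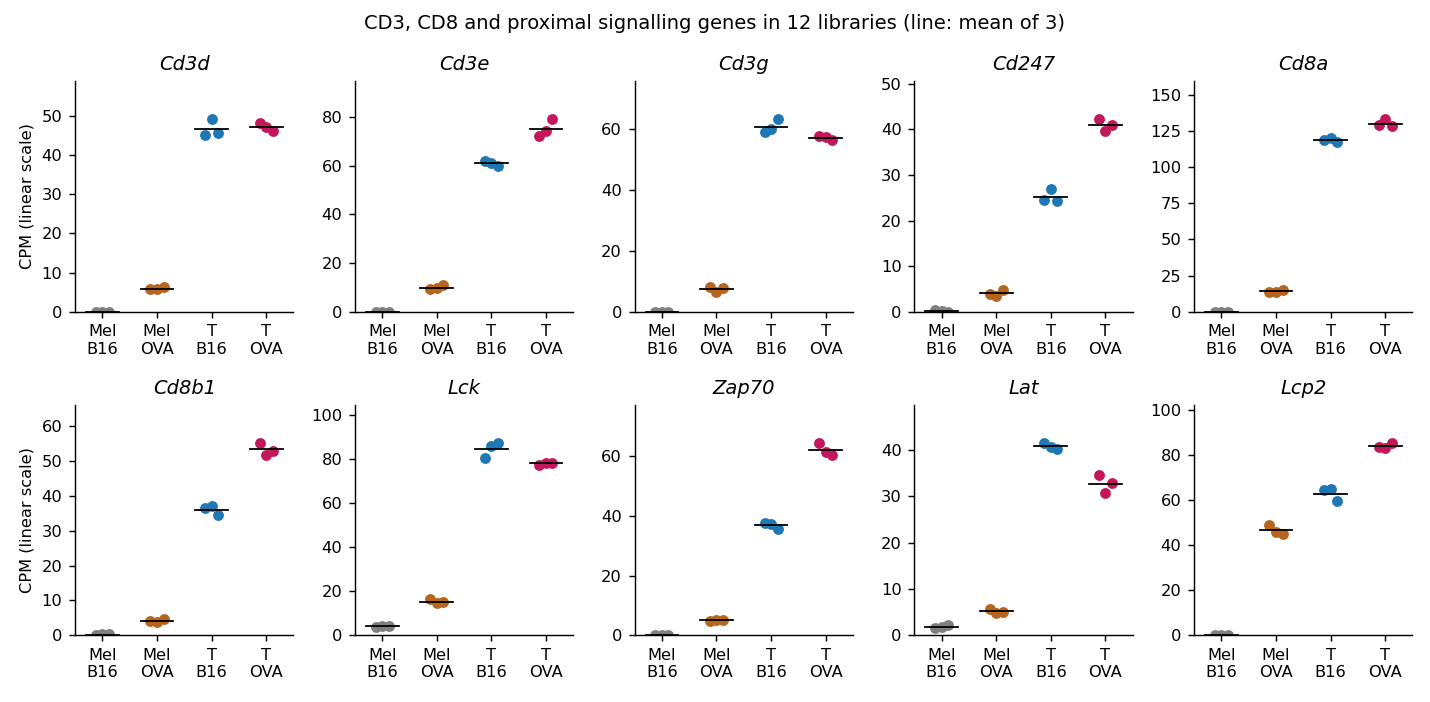
Level of each of the 10 genes (CPM, linear axis from 0) in the 12 libraries: B16-F10 and OVA melanoma fractions (Mel B16, Mel OVA) and B16-F10 and OVA T fractions (T B16, T OVA). Points are libraries and the line is the mean of 3. The T fractions are highest for all 10 genes, and Lcp2 stands out by its level of 46.7 CPM in the OVA melanoma fraction.

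The comparison of the T fractions asks how the receptor complex and its signalling genes differ in T cells taken from tumors with and without the antigen. In the OVA T fraction 6 of the 10 genes were higher (Zap70, Cd247, Cd8b1, Lcp2, Cd3e and Cd8a), Lat was lower, and Cd3d, Cd3g and Lck were not called (edgeR quasi-likelihood test, Benjamini-Hochberg adjusted p under 0.05, n = 3 per group). Of all 16536 genes tested, 23.7% were called higher and 22.4% lower. The median log2 fold change of the 10 was 0.27, and that of all genes -0.01. The members did not move together and spread from 1.75-fold higher for Zap70 to a fold of 0.837 for Lat.

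Among the receptor chains, Cd247 and Cd3e rose. Cd247, which encodes the zeta chain, stood at 24.6, 26.9 and 24.3 CPM in the B16-F10 T fraction and at 42.2, 39.6 and 41.1 CPM in the OVA T fraction. The lowest OVA library was far above the highest B16-F10 library, and the log2 fold change was 0.76 (SE 0.0514, adjusted p = 1.47e-12, edgeR). Cd3e, the epsilon chain that pairs with gamma and with delta, stood at 61.9, 60.9 and 59.9 against 72.2, 74.1 and 79.0 CPM. Again the groups did not overlap, with a log2 fold change of 0.36 (SE 0.037, adjusted p = 5.92e-09, edgeR). The delta chain gene Cd3d stood at 45.2, 49.1 and 45.6 against 48.1, 47.3 and 46.2 CPM, with overlapping groups. Its log2 fold change of 0.07 (adjusted p = 0.171, edgeR) had an approximate 95% interval of -0.01 to 0.16. The gamma chain gene Cd3g stood at 58.9, 59.8 and 63.1 against 57.8, 57.4 and 56.3 CPM. Its CPM values did not overlap, but after TMM scaling the log2 fold change was -0.03 (adjusted p = 0.607, edgeR), with an interval of -0.10 to 0.05. The 2 divergently placed neighbours Cd3d and Cd3g were thus not called, while Cd3e next to them rose.

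Of the coreceptor chains, Cd8b1 rose more than Cd8a. Cd8b1, the beta chain that makes the CD8 heterodimer of conventional CD8+ T cells, stood at 36.3, 37.0 and 34.5 CPM in the B16-F10 T fraction and 55.0, 51.7 and 52.9 CPM in the OVA T fraction (log2 fold change 0.62, SE 0.0437, adjusted p = 2.86e-12, edgeR). Cd8a, the alpha chain that also forms homodimers, stood at 119, 120 and 117 against 129, 133 and 128 CPM (log2 fold change 0.18, SE 0.0245, adjusted p = 6.44e-07, edgeR). Neither gene's groups overlapped. The cells had been selected with an antibody to CD8, so the selection acted on this protein in both T fractions. Of other cells that can carry CD8 alpha or CD3, dendritic and gamma-delta T cells had lower marker sums in the OVA T fraction. The sum of the 4 CD4 and regulatory T cell genes was not lower. It was 24.7 to 27.2 CPM in the B16-F10 and 25.4 to 27.8 CPM in the OVA T fraction. Its genes went both ways. Cd4 fell from 14.5 to 11.9 CPM (adjusted p = 0.0143, edgeR) and Foxp3 from 3.68 to 1.87 CPM (adjusted p = 0.000434, edgeR). Ikzf4 rose from 7.37 to 12.5 CPM (adjusted p = 1.42e-07, edgeR), and Cd40lg stood at 0.133 and 0.563 CPM. The 10 conventional dendritic cell genes summed to 347 to 356 CPM in the B16-F10 and 271 to 275 CPM in the OVA T fraction. Of these genes, 8 were at 5 CPM or more in both T fractions, and Ccr7 alone, at 210 and 168 CPM, made up most of the sum. The list is not confined to dendritic cells. Cadm1 stood at 180 CPM in the B16-F10 melanoma fraction, where Clec9a and Flt3 had 0 counts. Clec9a fell from 8.92 ± 0.661 to 5.69 ± 0.288 CPM (log2 fold change -0.59, adjusted p = 3.5e-05, edgeR). Batf3, in the same list, rose (log2 fold change 0.73, adjusted p = 8.57e-06, edgeR). The 5 gamma-delta T cell genes, 2 of them at 5 CPM or more, summed to 97.4 to 102 and 74.7 to 80.0 CPM, and Trdc, the delta constant gene, fell from 45.9 ± 0.666 to 28.5 ± 1.63 CPM (-0.62, adjusted p = 2.26e-11, edgeR). The part of these cells in the levels of the CD8 and CD3 genes was not tested.

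The kinases and adaptors went in different directions. Zap70 stood at 37.7, 37.5 and 35.7 CPM in the B16-F10 T fraction and at 64.4, 61.5 and 60.4 CPM in the OVA T fraction, the largest log2 fold change of the 10 genes (0.80, SE 0.042, adjusted p = 5.5e-15, edgeR). Lck, the kinase upstream of it, stood at 80.3, 85.7 and 87.1 against 77.4, 78.0 and 78.2 CPM. Its log2 fold change of -0.06 was not called (adjusted p = 0.161, edgeR, interval -0.12 to 0.01), and without replicate 1 of the B16-F10 T fraction it was called lower, at -0.09. The adaptor gene Lat fell, with 41.5, 40.7 and 40.2 CPM against 34.6, 30.6 and 32.9 CPM, and its log2 fold change was -0.26 (SE 0.0491, adjusted p = 9.48e-05, edgeR). Lcp2 rose, with 64.4, 65.0 and 59.6 CPM against 83.8, 83.2 and 85.4 CPM, and its log2 fold change was 0.47 (SE 0.0343, adjusted p = 6.04e-12, edgeR). The 2 adaptors that ZAP-70 phosphorylates thus moved in opposite directions under TMM, with no overlap in CPM between the groups for either. Scaled to other T cell genes, Lat was not called, as given below. SLP-76 is also made by neutrophils, macrophages and platelets. The 8 neutrophil markers summed to 41.0 to 44.6 CPM in the B16-F10 and 72.8 to 76.5 CPM in the OVA T fraction. The 10 mast cell and platelet markers fell, from 16.4 to 21.1 CPM to 11.9 to 13.8 CPM. Of the macrophage and monocyte markers, Cd14 alone was called higher, from 437 to 577 CPM. Adgre1, Aif1 and Fcgr1 were not called, and the others were called lower, Lyz2 from 116 to 77.2 CPM (edgeR). The part of those cells in the Lcp2 change was not tested.

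The 18 other T cell genes went both ways between the T fractions, with 6 called higher, 9 lower and 3 not called. With TMM 23.7% of all genes were called higher and 22.4% lower. The sum of the 18 genes was lower in the OVA T fraction, as given above. When the libraries were scaled to that sum in place of TMM, 9 of the 10 members were called higher and 0 lower. Under this scaling 43.7% of all genes were called higher and 10.4% lower, and the median of all genes shifted to 0.16. The share of all calls that were higher went from 51.3% with TMM to 80.7%, and with library totals alone it was 38.7%. Zap70 then had a log2 fold change of 0.97 (SE 0.0432) and Cd247 of 0.92 (SE 0.0523). Lck and Cd3g turned to 0.11 and 0.14 and were called higher, and Lat, at -0.09, was no longer called (adjusted p = 0.12, edgeR). The antigen-binding chains of the receptor differed among themselves under TMM: the alpha constant gene Trac rose (log2 fold change 0.24, SE 0.0312, adjusted p = 4.35e-07, edgeR), Trbc1 was not called (-0.02, adjusted p = 0.657), and Trbc2 fell from 287.6 ± 2.57 to 190.1 ± 1.35 CPM (-0.54, SE 0.0187, adjusted p = 6.04e-19). Trbc1 and Trbc2 are near-identical in their coding sequence, so reads may be split between them.

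**Figure D2:**
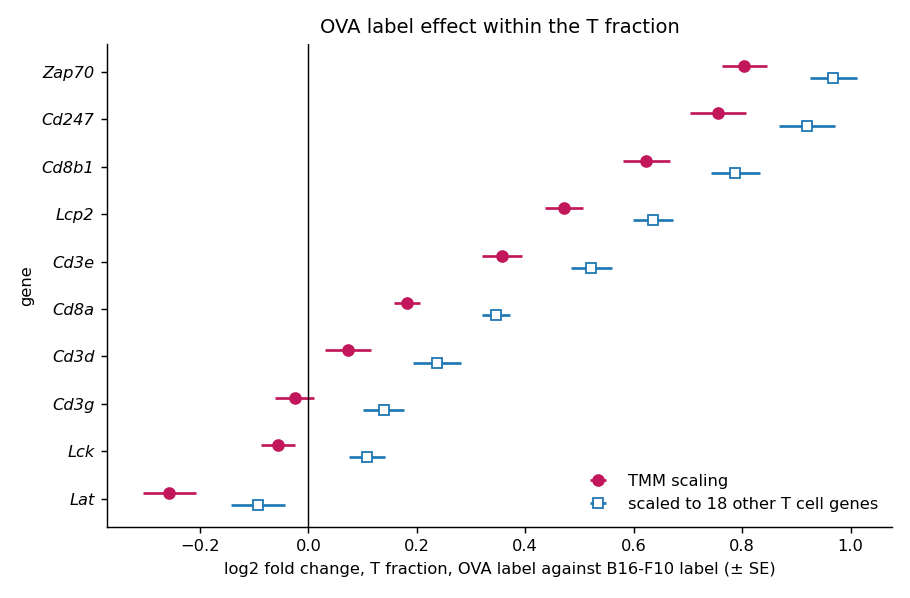
Log2 fold change of each member between the T fractions, OVA label against B16-F10 label, with its SE (3 libraries per group). Filled circles use TMM scaling and open squares the summed counts of 18 other T cell genes. Zap70, Cd247 and Cd8b1 lead under both scalings, and Lck and Cd3g change sign.

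Ratios between members in the same library need no scaling, but the part of cells other than T cells in them was not tested. The ratio of Cd8b1 to Cd8a counts was 0.294 to 0.308 in the B16-F10 T fraction and 0.389 to 0.427 in the OVA T fraction. Zap70 to Cd3e was 0.596 to 0.615 against 0.765 to 0.893, and Cd247 to Cd3e was 0.397 to 0.442 against 0.52 to 0.585. Lat to Cd3e went the other way, from 0.669 to 0.671 in the B16-F10 T fraction to 0.413 to 0.479 in the OVA T fraction, and Lck to Cd3e from 1.30 to 1.45 against 0.99 to 1.07. The adaptors compared with each other, Lcp2 to Lat, were at 1.54 ± 0.0573 and 2.58 ± 0.147 (SD, n = 3). The groups of T libraries did not overlap in any of the 10 ratios computed, including Cd3d, Cd3g, Cd8a and Lcp2 to Cd3e. Most of the 10 share Cd3e as denominator, which itself rose, so they are not separate observations. How often ratios of other gene pairs overlap was not computed. Between these fractions 23.7% of all genes were called higher and 22.4% lower. The exact two-sided permutation test gave p = 0.1 for each, which is the smallest that 3 against 3 libraries allow (adjusted p = 0.125 over 30 ratio tests), so these ratios could not pass 0.05.

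**Figure D3:**
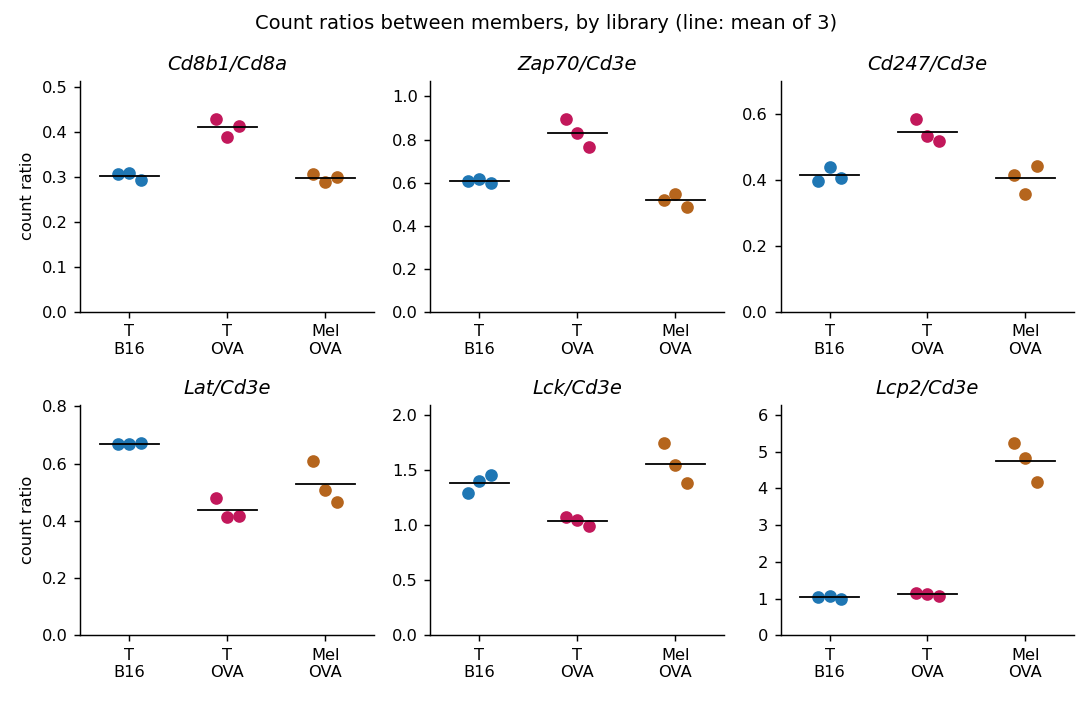
Ratio of raw counts between named members (linear axis from 0) in each library of the B16-F10 T fraction (T B16), the OVA T fraction (T OVA) and the OVA melanoma fraction (Mel OVA). Points are libraries and the line is the mean of 3. Cd8b1 to Cd8a lies at 0.302 and 0.298 in T B16 and Mel OVA and at 0.41 in T OVA, and Lcp2 to Cd3e is 4.74 in Mel OVA.

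The melanoma fractions differed from each other in every member. All 10 were called higher in the OVA melanoma fraction (edgeR, against 42.0% of 17418 genes called higher), with a median log2 fold change of 7.77, or 7.59 with the gene at 0 counts set to its bound, beside 0.04 for all genes. In the B16-F10 melanoma fraction Cd3e had 0 counts in all 3 libraries, which allows up to 0.0473 CPM (3 counts over the group), against 9.35, 9.54 and 10.8 CPM in the OVA melanoma fraction, so it was at least 209-fold higher there. The OVA libraries held 5.74, 5.76 and 6.28 CPM of Cd3d, and 8.15, 6.56 and 7.81 CPM of Cd3g. Zap70 stood at 4.87, 5.23 and 5.23 CPM there and Cd8a at 13.6, 13.5 and 15.3 CPM. Each of these libraries was above every B16-F10 library. Cd3g, Zap70, Cd3d and Cd8a had 1, 1, 2 and 3 counts over the 3 libraries of the B16-F10 melanoma fraction. Their ratios were 485 for Cd3g (95% Clopper-Pearson counting interval 86.7 to 19197), 322 for Zap70 (57.4 to 12744), 188 for Cd3d (51.7 to 1555) and 299 for Cd8a (102 to 1452). Intervals and floors cover counting error only. Cd247 had 9, 5 and 0 counts in the B16-F10 libraries and 3.88, 3.41 and 4.79 CPM in the OVA libraries. Cd8b1 had 1, 8 and 6 counts against 4.18, 3.89 and 4.59 CPM. The log2 fold changes were 4.33 (SE 0.338) for Cd247 and 4.30 (SE 0.287) for Cd8b1.

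Lck, Lat and Lcp2 departed from the rest in the melanoma fractions. Lck stood at 3.67, 4.26 and 4.22 CPM and Lat at 1.598, 1.85 and 2.22 CPM in the B16-F10 melanoma fraction, where Cd3e was at 0. They were therefore the members with the smallest rise, 2.10 (SE 0.0909) for Lck and 1.64 (SE 0.15) for Lat on the log2 scale, to 16.3, 14.8 and 15.0 CPM and 5.68, 4.85 and 5.03 CPM. Lcp2 went from 0.094, 0.215 and 0.211 CPM to 48.9, 46.0 and 45.1 CPM, a log2 fold change of 8.20 (SE 0.126, adjusted p = 1.24e-24, edgeR). The B16-F10 T fraction stood 1.35-fold above this level, against 5.49-fold or more for the other 9 members. SLP-76 is also made by macrophages, neutrophils and platelets, and the summed macrophage and monocyte markers were higher in the OVA melanoma fraction than in either T fraction, with 12 of 12 at 5 CPM or more. The part of those cells in the Lcp2 level was not tested.

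The T fractions stood above the melanoma fraction of the same label in every member. For the OVA label, all 10 were called higher in the T fraction (edgeR, against 38.2% of 17947 genes), with a median log2 fold change of 3.09 beside -0.03 for all genes. Zap70 and Cd8b1 were 12.2-fold and 12.6-fold higher by mean CPM, Cd247 10.2-fold, Cd8a 9.18-fold, Cd3d 7.96-fold, Cd3g 7.62-fold, Cd3e 7.59-fold, Lat 6.30-fold and Lck 5.07-fold. Lcp2 was 1.80-fold higher (log2 fold change 0.97, SE 0.0347, adjusted p = 6.9e-18). For the B16-F10 label all 10 were also called higher in the T fraction (45.4% of 17099 genes), with Cd3e at least 1290-fold higher, and Lck and Lat least so, with log2 fold changes of 4.66 (SE 0.0646) for Lck and 4.72 (SE 0.0894) for Lat. The median there was 9.63, or 9.53 with Cd3e at its bound, beside 0.06 for all genes. CD8 was the target of the beads, so the rise of Cd8a and Cd8b1 is a check of the selection. The comparisons share libraries: the OVA melanoma fraction is the higher group of one and the lower group of the other. The OVA label effect was smaller in the T fraction than in the melanoma fraction for 10 of 10 members (edgeR interaction test over 12 libraries, where 41.3% of 18562 genes were called in this direction and 27.7% in the other).

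Relative to other T cell genes, the members of the OVA melanoma fraction had a different balance from those of the OVA T fraction. When both were scaled to the 18 other T cell genes, 7 members were called higher in the T fraction, Lck and Lcp2 were lower there and Lat was not called (edgeR, where 1.12% of all genes were called higher and 96.8% lower, with a median of -2.63). Cd8b1 had 1.17 (SE 0.073), Zap70 1.13 (SE 0.0672) and Lcp2 -1.64 (SE 0.0367) as log2 fold change. With the receptor constant genes alone as the T cell sum, which leaves out Prkcq, the differences were 1.07 for Cd8b1, 1.01 for Zap70 and -1.74 for Lcp2. Lck and Lat stood at 4.05 and 1.89 CPM in the B16-F10 melanoma fraction, where Cd3e had 0 counts. The part of cells other than T cells in the Lck and Lat values given here, ratios included, was not tested. Of the 10 ratios between members, 3 in the OVA melanoma fraction overlapped those of the B16-F10 T libraries and not those of the OVA T libraries, 3 the reverse, and 4 lay outside both. With 3 libraries a group, an overlap does not show that ratios are alike, and most of the ratios share Cd3e as denominator. Cd8b1 to Cd8a, at 0.289 to 0.307, Cd247 to Cd3e, at 0.358 to 0.444, and Lck to Cd3e, at 1.39 to 1.75, overlapped the B16-F10 T libraries. Cd3g to Cd3e, at 0.687 to 0.871, Cd3d to Cd3e, at 0.582 to 0.614, and Lat to Cd3e, at 0.466 to 0.608, overlapped the OVA T libraries. Zap70 to Cd3e, at 0.485 to 0.547, and Cd8a to Cd3e, at 1.41 to 1.46, lay below every library of both T fractions, where they were at least 0.596 and 1.62. Lcp2 to Cd3e, at 4.18 to 5.23, and Lcp2 to Lat, at 8.60 to 9.48, lay above every library of both T fractions, where they reached 1.16 and 2.72.

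**Figure D4:**
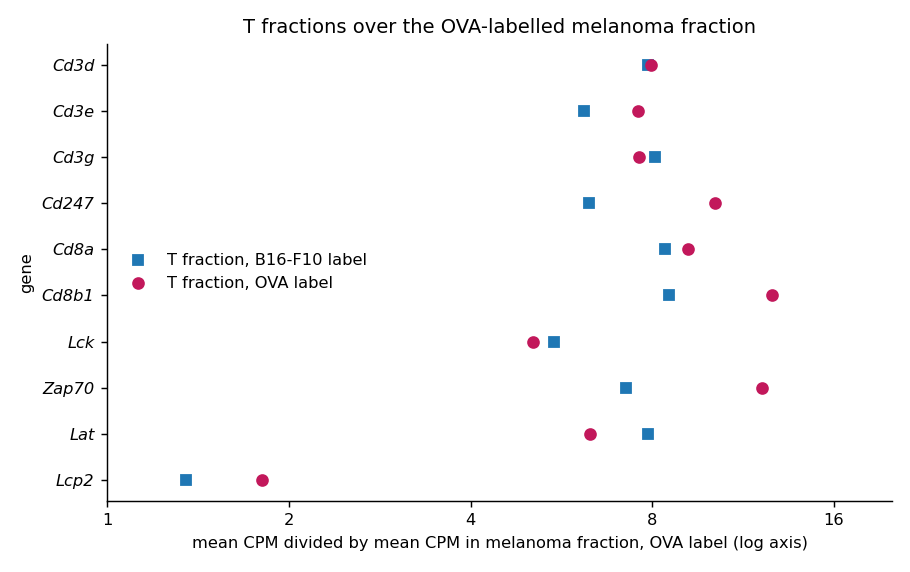
Mean CPM of each member in the B16-F10 T fraction (squares) and the OVA T fraction (circles), each divided by its mean CPM in the OVA melanoma fraction (log axis, means of 3 libraries). Apart from Lcp2, at 1.35 and 1.80, the squares lie between 5.49 and 8.52 and the circles between 5.07 and 12.6.

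Other genes of receptor signalling were followed in a list of 40, of which 15 are also among the 18 T cell genes. Between the T fractions 11 were higher, 22 lower and 7 not called, with a median log2 fold change of -0.15. Of all genes, 23.7% were called higher and 22.4% lower. Scaled to other T cell genes, 16 of the list were higher, 14 lower and 10 not called, with a median of 0.02 beside 0.16 for all genes. That scaling called 43.7% of all genes higher and 10.4% lower. Grap2, Cd28 and Trbc2 were among the list genes with the smallest adjusted p under TMM. Grap2, which encodes the adaptor GADS that links LAT to SLP-76, stood at 103 ± 2.11 CPM in the B16-F10 and 44.2 ± 1.62 CPM in the OVA T fraction, a fall with log2 fold change -1.17 (SE 0.0347, adjusted p = 2e-20, edgeR). Cd28, the costimulatory receptor that the activating beads also bind, rose from 51.1 ± 1.77 to 97.7 ± 1.09 CPM, a log2 fold change of 1.00 (SE 0.033). So under TMM Lat and Grap2 were lower and Lcp2 higher among the 3 genes of the LAT, GADS and SLP-76 adaptors. Between the melanoma fractions, 34 of 37 tested were higher and 1 lower (median 7.04, or 6.31 with 5 genes at their bound), led by the phosphatase gene Ptprc, the actin regulator genes Coro1a and Dock2, and the exchange factor gene Vav1, which had 3 counts in the B16-F10 melanoma fraction and 34.6 ± 0.69 CPM in the OVA fraction. Between the OVA-labelled fractions 36 of 39 were higher in the T fraction and 3 lower, and between the B16-F10-labelled fractions 38 of 40 were higher and 2 lower. Between the melanoma fractions 42.0% of all genes were called higher with the OVA label and 37.4% lower. In the OVA T fraction 38.2% were called higher and 41.1% lower than in its melanoma fraction, and in the B16-F10 T fraction 45.4% and 42.3%.

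Genes that myeloid, B or natural killer cells use in place of the members gave a different pattern. Of 13 such genes, 13 were higher in the OVA than in the B16-F10 melanoma fraction, and 9 were lower and 4 higher in the OVA T fraction than in the OVA melanoma fraction. Syk, the relative of Zap70 in those cells, stood at 145.7 ± 2.94 CPM in the OVA melanoma fraction and at 94.9 ± 1.70 and 94.0 ± 3.25 CPM in the B16-F10 and OVA T fractions. Fcer1g, a signalling chain related to zeta, stood at 73.6 ± 1.497, 15.3 ± 0.368 and 19.4 ± 0.843 CPM, and Tyrobp, which encodes the adaptor DAP12, at 51.8 ± 0.414, 23.1 ± 1.17 and 20.5 ± 0.716 CPM in the same order. Between the T fractions 4 of the 13 were higher, 3 lower and 6 not called, with Fcer1g higher (log2 fold change 0.39, SE 0.0646, adjusted p = 1.16e-05, edgeR) and Hcst, which encodes the adaptor DAP10, lower (-0.84, SE 0.13, adjusted p = 5.35e-06). The shares of all genes called higher and lower were 23.7% and 22.4% between the T fractions. They were 42.0% and 37.4% between the melanoma fractions, and 38.2% and 41.1% between the OVA-labelled fractions.

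The genes whose 4 group means lay nearest to the median profile of the members, among 10947 genes with at least 5 CPM in the T fractions, were Il12rb2, Cd2, Trav14d-1, Themis, Cxcr6 and Trbc1. Their distance was a root mean square difference of 0.12 to 0.26 on the log2 scale over the 4 centred group means, a description with no test. Among the members themselves this distance ran from 0.16 for Cd3d and 0.19 for Zap70 to 0.93 for Lck, 1.03 for Lcp2 and 1.06 for Lat. The profile of Cd2, which encodes an adhesion receptor of T cells, went from 0 counts in the B16-F10 melanoma fraction and 5.75 ± 0.465 CPM in the OVA melanoma fraction to 45.0 ± 0.82 and 49.98 ± 0.706 CPM in the B16-F10 and OVA T fractions. Themis, which encodes a T cell signalling protein bound to GRB2, stood at 0.194 ± 0.113, 5.78 ± 0.667, 39.9 ± 0.919 and 46.4 ± 0.6 CPM in the same order. Trav14d-1 is a receptor variable segment with near-identical copies, so its level is uncertain.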

How the data were processed

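The authors deposited raw counts per Ensembl gene, 1 column per library and all 12 columns used. Per the submitters' processing notes, HISAT2 2.0.5, featureCounts 1.6.0 and the build GRCm39 were used. Per the labels' protocols, libraries were poly-A selected. The strand setting, multi-mapped reads and annotation release are not given in the sources used here, so reads of antisense genes cannot be told apart. 3 entries described as lying within or antisense to Cd247 held 23, 8 and 11 counts over all libraries.

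Tests used edgeR 4.0.16 in R 4.3.3: filterByExpr, TMM, quasi-likelihood F tests, Benjamini-Hochberg adjustment over all genes tested and a threshold of 0.05, on the 6 libraries compared, or on all 12 for the difference of differences. SEs derive from the F statistic, intervals are 1.96 SE, and the script was tested on simulated data. CPM values use library totals. Genes at 0 to 3 counts over a group get a bound or counting interval in place of a fitted fold. Libraries of a group differed by 1.51 to 1.77 times counting noise (chi-square per degree of freedom) and were kept as 3. Same-numbered libraries of different groups correlated by -0.041 to 0.123 and others by -0.132 to 0.067. This does not settle whether the numbers pair libraries, and the main tests treat them as unpaired. The members and all lists (182 genes, 182 found) were chosen with earlier results of these data known. Named were all members and up to 4 genes per list and comparison with the smallest adjusted p and at least 5 CPM, and the 6 genes of most similar profile, on log2(CPM + 0.5). 1 gene that the rule names is not reported here. Genes named besides these, among them the cell markers, Trac and Trbc1, were picked with values known. Other settings tried were library totals, median-ratio size factors, other filters, DESeq2 1.42.0, a replicate block, 1 fit over 12 libraries, scaling to T cell genes and leaving out each library.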

Additional observations from a re-analysis of the deposited data

Results flagged for a closer look

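The OVA label effect of every member differed between the T fraction and the melanoma fraction in the edgeR interaction test over 12 libraries, where 41.3% of 18562 genes were called in the same direction. The effect in the T fraction minus that in the melanoma fraction was -3.58 for Cd247, -3.68 for Cd8b1, -2.16 for Lck, -1.91 for Lat and -7.72 for Lcp2 on the log2 scale. For the members with 0 to 3 counts in the B16-F10 melanoma fraction only the adjusted p is given, which was 8.71e-18 for Cd3d, 1.56e-17 for Cd3e, 1.35e-18 for Cd3g, 4.16e-21 for Cd8a and 2.86e-15 for Zap70 (edgeR). Lck and Lat had the smallest differences among the 5 members with a usable fold, and they had the highest levels of the 10 in the B16-F10 melanoma fraction, 4.05 and 1.89 CPM, against 0.236 CPM for Cd8b1, 0.213 CPM for Cd247 and 0.173 CPM for Lcp2.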

How the results depend on the processing

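The counts of members called in the melanoma comparison, in the B16-F10-labelled comparison of fractions and in the interaction were the same under every alternative run. Between the T fractions the count of members higher was 6 and that of members lower 1, and leaving out 1 library each gave 6 and 1 to 2, the second lower gene being Lck without replicate 1 of the B16-F10 T fraction. With library totals 2 members were lower, and scaled to other T cell genes 9 were higher and 0 lower between the T fractions, and 7 higher and 2 lower between the OVA-labelled fractions. That scaling turned Cd3g to 0.14 and Lck to 0.11 between the T fractions, and Lck to -0.16 and Lcp2 to -1.64 between the OVA-labelled fractions, by its construction, since the T cell sums differ. Cd3g, not called, ran from -0.0437 to 0.00144 when 1 library was left out, the latter without replicate 3 of the B16-F10 T fraction. With only the receptor constant genes as the T cell sum, Lat relative to T cell genes turned to 0.014, and the median over members between the T fractions was 0.55 in place of 0.44. The replicate block gave 6 members higher and 1 lower between the T fractions and changed no other count of members, and 8 of 12 libraries correlated best with a library of their own number. Library totals moved the median of all genes from 0.04 to -0.13 between the melanoma fractions, from -0.03 to -0.15 between the OVA-labelled and from 0.06 to -0.22 between the B16-F10-labelled fractions. Depth limits the members at 0 to 3 counts in the B16-F10 melanoma fraction.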

Other observations

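Brakes on receptor signalling, 17 genes in all, went both ways between the T fractions, with 8 higher, 7 lower and 2 not called and a median log2 fold change of 0.08. Of all genes, 23.7% were called higher and 22.4% lower there. The related phosphatase genes Ubash3b and Ubash3a moved in opposite directions. Ubash3b rose from 26.2 ± 2.26 CPM in the B16-F10 T fraction to 49.7 ± 2.53 CPM in the OVA T fraction (log2 fold change 0.99, SE 0.0552, adjusted p = 2.31e-14, edgeR), and Ubash3a fell from 22.0 ± 0.396 to 9.68 ± 1.11 CPM (-1.11, SE 0.0748, adjusted p = 1.15e-12). Ubash3b also stood at 44.2 CPM in the B16-F10 melanoma fraction, where Ubash3a was at 0.11 CPM. Ptpn6, which encodes the phosphatase SHP-1, rose by 0.66 (SE 0.046) on the log2 scale, and the ubiquitin ligase gene Cblb by 0.21 (SE 0.0189). In the melanoma fractions Cblb, at 25.7 ± 1.32 and 95.5 ± 4.76 CPM in the B16-F10 and OVA fractions, was among the 10 brakes of 17 that were higher with the OVA label, while 3 were lower and 4 not called. In that comparison 42.0% of all genes were called higher and 37.4% lower.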
